A study of Mus musculus with 25 samples.

Results

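Fatty acid oxidation and the targets of the nuclear receptor PPARalpha were followed in mouse liver as a set of 42 genes, taken by gene symbol. All 42 were found among the 30524 genes listed in the expression tables, and all 42 were measured in each of the 25 libraries. The members were chosen by name, with earlier results of these data known. The rule itself uses no measured value. The set holds the receptor itself, the enzymes that carry fatty acids into mitochondria and peroxisomes and degrade them, and genes that PPARalpha is known to switch on.

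The mice were C3H/HeJ males, a strain that readily develops liver tumours, obtained at 5 weeks of age. Diethylnitrosamine (DEN), a carcinogen that liver enzymes convert to a DNA-alkylating form, was injected intraperitoneally at 25 mg/kg 2 times a week for 3 weeks, with a week of rest, in 5 such cycles. After a further month without injections came 3 weeks of gavage with caffeine (CAF, 3 doses of 50 mg/kg per week), with sorafenib (SOR, a multikinase inhibitor used against liver cancer, 2 doses of 30 mg/kg per week), with the pair of drugs or with vehicle. The groups are Untreated (saline in place of DEN, then vehicles, 5 mice), DEN (carcinogen, then vehicles, 6 mice), DEN_CAF (5 mice), DEN_SOR (4 mice) and DEN_CAF_SOR (5 mice). All groups but Untreated carry the carcinogen, so no group shows either drug without it. Each library came from a separate mouse, per the sample titles. Whether the sampled liver held tumour tissue, and whether the mice were fasted, is not given in the sources used here.

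In the liver, long-chain fatty acids are coupled to coenzyme A, handed to carnitine to cross the inner mitochondrial membrane, and shortened in repeated rounds of dehydrogenation, hydration, dehydrogenation and thiolysis. Peroxisomes shorten the very long and branched chains. PPARalpha is a ligand-activated transcription factor that binds DNA with its partner RXR and, in fasting, raises the genes for these steps along with hormone-like proteins such as FGF21 and ANGPTL4.

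PPARalpha and RXR bind a direct repeat of the half-site AGGTCA with 1 base between the copies, written AGGTCANAGGTCA. The 250 bases before the transcript start were searched on both strands for this motif with up to 2 mismatches in its 12 fixed positions, in the promoters that RefSeq gives on GRCm38.p6. Of the 35 members with a promoter there, 5 held a match (14.3%), against 1005 of 27025 genes (3.72%). The search covers only that window, and a match describes letters and not binding. The 5 matches are printed with their flanks because these are the members whose promoter holds the receptor's motif. Each is written 5′ to 3′ on the gene's own strand, in capitals where the match lies.
Fabp1: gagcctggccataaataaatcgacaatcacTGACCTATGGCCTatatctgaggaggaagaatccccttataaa
Plin2: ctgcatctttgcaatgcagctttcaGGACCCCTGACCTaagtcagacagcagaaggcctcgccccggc
Creb3l3: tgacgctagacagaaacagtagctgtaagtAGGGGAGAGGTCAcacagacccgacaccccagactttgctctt
Etfa: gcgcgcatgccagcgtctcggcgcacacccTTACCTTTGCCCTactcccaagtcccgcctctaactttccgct
Acot4: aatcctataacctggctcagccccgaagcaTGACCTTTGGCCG
The Fabp1 match had 1 mismatch and the other 4 had 2. Fabp1 lies at chr6:71199782-71199854 on the plus strand, and its match begins 67 bases before the transcript start. The Plin2 window is chr4:86670242-86670309 on the minus strand, with the match 225 bases upstream. For Creb3l3 it is chr10:81092758-81092830, minus strand, 209 bases upstream, and this is the match that reads along the gene's strand. For Etfa it is chr9:55512278-55512350, minus strand, 77 bases upstream. The Acot4 match, at chr12:84038336-84038378 on the plus strand, ends 1 base before the transcript start. The values of these 5 genes stand with their roles below: none was called in any comparison by limma in the fit of all 25 libraries, and Acot4 and Etfa were called lower in DEN than in Untreated by the fit within libraries numbered 3 and 4 (adjusted p = 0.0242 and 0.0264).

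The libraries held 14750278 to 21992613 assigned reads. Levels are given as FPKM, in which reads are divided by gene length and by the library total, so that levels of different genes can be compared. Hepatocyte markers were abundant in every library, Alb being at 14528 FPKM or more. Reads on genes of the mitochondrial chromosome made up 9.58% to 34.8% of the total in libraries numbered 3 and 4 of the 4 carcinogen groups and 5.65% to 13.5% in all the others. The numbers come from the titles, which do not say what mice of 1 number share. Untreated 3, 4 and 5 had 22879, 29770 and 13370 reads of Xist, the RNA made from the inactive X chromosome of female cells. Every other library had at most 21, so these 3 go against the label male. Values of DEN against Untreated that turned or moved by over 1.5 times without them are given beside the members whose own fold change is printed. In bulk tissue, fewer hepatocytes and less RNA per hepatocyte cannot be told apart.

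Taken as a set, fatty acid oxidation genes were lower in particular mice rather than across a whole group. Single members differed: Acadl, Cpt1a, Slc27a2 and Decr2 were below every Untreated mouse in most DEN mice, as given with their roles below. None of these was called by limma in the fit of all 25 libraries. The share of all tested genes with this pattern was not counted. Over the 42 members, the median deviation of log2(FPKM + 1) from the 25-library median was -1.28 in DEN 4 and -0.98 in DEN 3. It was -0.67 in DEN_SOR 4, -0.56 in DEN_CAF_SOR 3 and between -0.21 and 0.49 in the other 21 libraries. DEN 4 had the lowest value of all 25 libraries for 25 members and DEN 3 for 7. At the other end, DEN 1 had the highest value for 13 members and DEN_CAF 5 for 11. The median deviation over all tested genes was -0.08 in DEN 4, -0.10 in DEN 3, -0.25 in DEN_SOR 4 and -0.05 in DEN_CAF_SOR 3. The median member thus lay further down than the median gene of those libraries. This scale understates the change of low genes, and the medians were not matched for level. The heat map of all members shows these 2 dark DEN columns beside DEN 1.

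**Figure D1:**
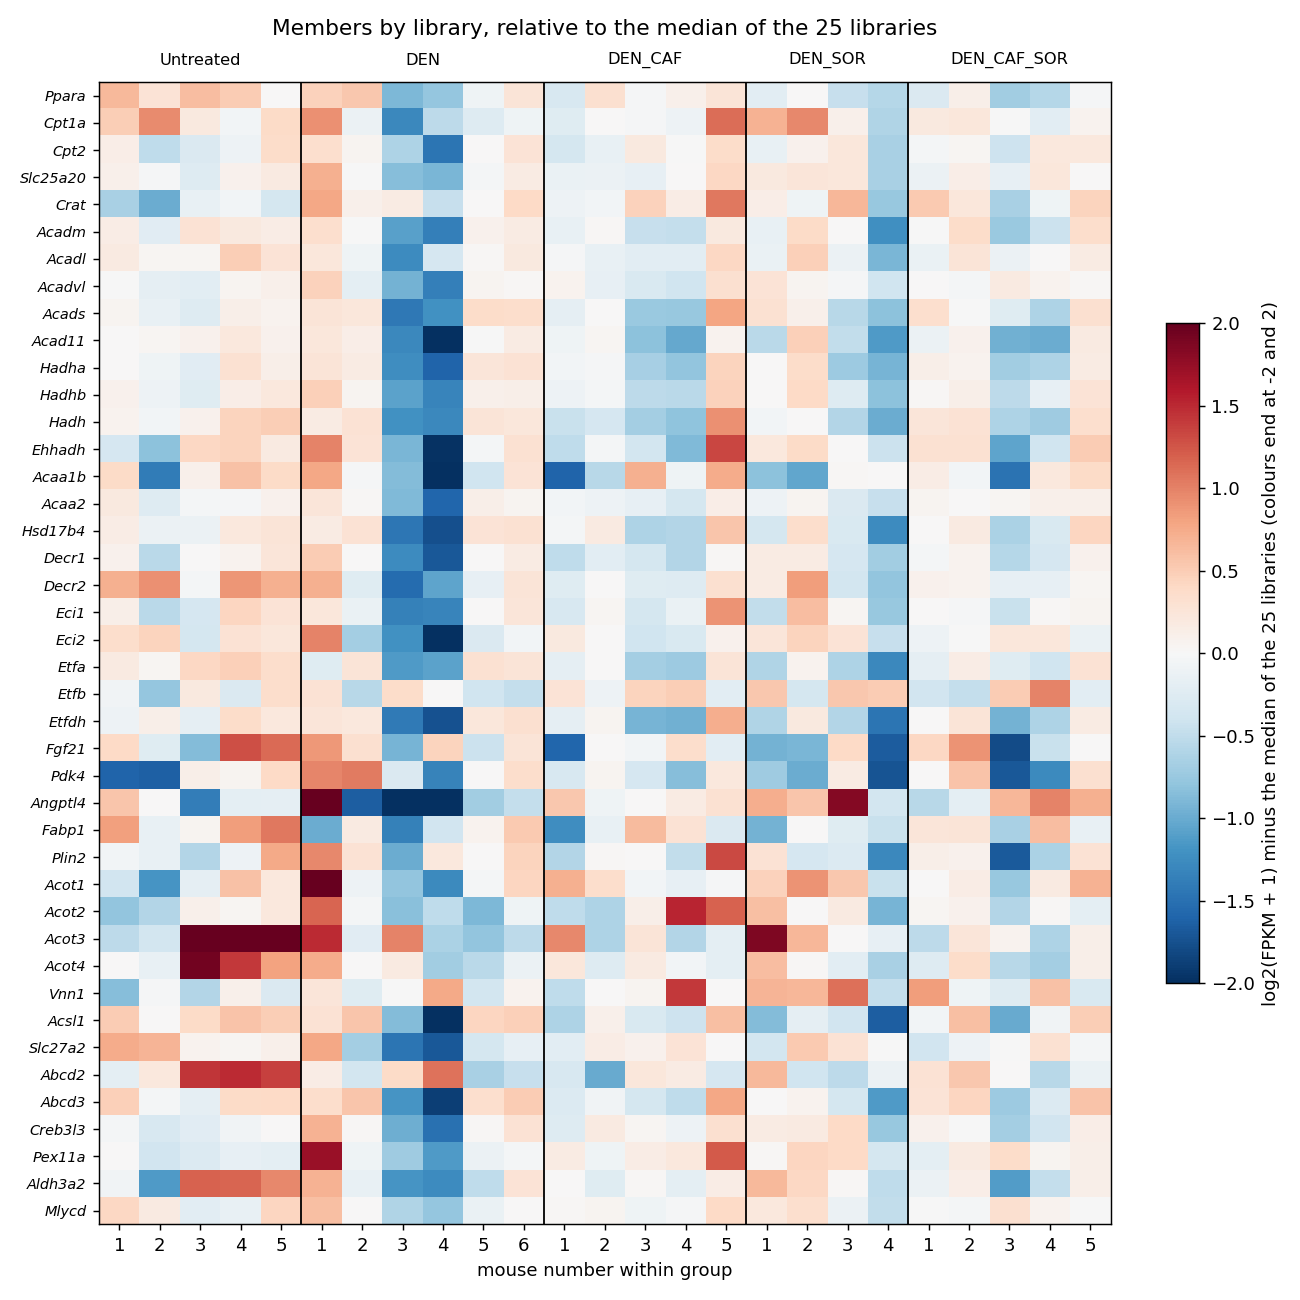
Each row is 1 of the 42 members and each column 1 mouse, grouped by treatment; colour is log2(FPKM + 1) minus that gene's median over the 25 libraries, with colours ending at -2 and 2. DEN 3 and DEN 4 are blue for most rows (median deviations -0.98 and -1.28), DEN 1 and DEN_CAF 5 are red for many, and Etfb, Abcd2, Acot3 and Vnn1 follow other patterns.

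The 4 low libraries all carry the number 3 or 4. Within DEN, 38 of 42 members had a lower mean log2 level in libraries 3 and 4 than in the other 4 mice, with a median difference of -1.36. The count was 31 in DEN_CAF (median -0.26), 35 in DEN_SOR (-0.54) and 32 in DEN_CAF_SOR (-0.50). In Untreated it was 19 (0.06), where 30.0% of all tested genes were lower in libraries 3 and 4 (median 0.14), and with TMM scaling it was 28 (-0.13). Of all tested genes, 61.9% to 63.5% were lower in libraries 3 and 4 in the carcinogen groups, with medians from -0.15 to -0.11. In all 4 carcinogen groups 22 members were lower in these libraries, and Etfb alone was higher in all 4. The mitochondrial read share averaged 17.2% to 24.2% in libraries 3 and 4 of these groups, against 7.09% to 8.22% in their other libraries. All 8 libraries with a share over 13% had a median member deviation below 0, from -0.98 to -0.01. Of the other 17, 12 were at or above 0 and 5 below, among them DEN 4, the lowest for the members, with a share of 9.58%. DEN 4 also had the highest sum of 8 hepatocyte markers (89221 FPKM, against 24587 to 50302 in the other libraries), a sum carried by Alb (58619 FPKM) and Apoa1 (22554). Alb, Apoa1 and Serpina1a (2353 FPKM) were each highest in DEN 4. The other markers were not: Ttr (5262 FPKM), Apob (171), Tat (124) and Hnf4a (84.9) lay within the range of the other libraries. Cps1, at 52.7 FPKM, was the lowest of the 25 libraries. The sum of 5 neutrophil markers was also highest in DEN 4 (388 FPKM, against 49.7 in DEN 3 and 24.1 or less elsewhere). The part of these features in the member levels was not tested.

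**Figure D2:**
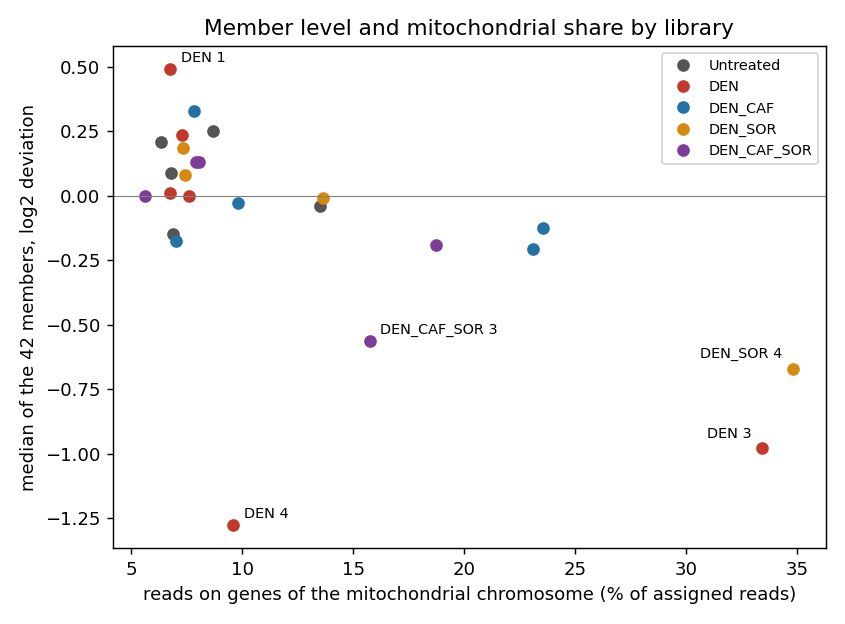
Each point is 1 library: the share of assigned reads on the mitochondrial chromosome (x axis, %) against the median log2 deviation of the 42 members (y axis), coloured by group. DEN 3 and DEN_SOR 4 sit at a high share and a low member level, while DEN 4 has the lowest member level at a share of 9.58%.

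Compared over all 5 groups, no member passed limma's moderated F-test after Benjamini-Hochberg adjustment over the 12741 tested genes, of which 0.95% (121 genes) passed. All 42 members met the filter on low values. The smallest adjusted p among them was 0.401 (Abcd2). An unadjusted p under 0.05 was found for 3 members, Abcd2, Ppara and Acot4, and for 11.4% of all tested genes. In group means, 25 of the 42 members were highest in Untreated, and 15 were lowest in DEN_SOR and 14 in DEN. No member had groups that failed to overlap in any of the 6 pairwise comparisons. Of all tested genes, 3.93% failed to overlap between DEN and Untreated, 0.267%, 0.699% and 0.29% between DEN and DEN_CAF, DEN_SOR and DEN_CAF_SOR, 0.856% between DEN_CAF_SOR and DEN_SOR and 0.997% between DEN_CAF_SOR and DEN_CAF. DESeq2 on the reads called 2 members over the 5 groups, Acot3 and Acot4, where it called 6.44% of all genes. edgeR called 0 members and 2.17% of genes. edgeR with a term for the numbers 3 and 4 called Decr2 over the 5 groups, with 3.06% of all genes.

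The comparison of DEN with Untreated addresses what the carcinogen course left in the liver after its end. Of the members, 35 had a lower and 7 a higher mean log2 level in DEN, with a median log2 fold change of -0.39, against 0.03 over all tested genes. By limma, 0 of 42 members passed, against 2.04% of all genes (260 of 12741). An unadjusted p under 0.05 was found for 9 members and for 16.5% of all genes. The median 95% interval of a member reached 0.67 to either side of its log2 fold change, and for 15 members it lay wholly between -1 and 1. The median was -1.35 within libraries 3 and 4 alone, where 40 members were lower in DEN, and 0.12 within the other libraries, where 15 were. Within libraries 3 and 4, limma called 17 members lower, with 3.08% of all genes called lower. Both Untreated libraries there carry Xist reads, and 2 libraries face 2. Within the other libraries it called 0 members, against 1.34% of genes. Without the 3 Untreated libraries with Xist reads, 27 members were lower and 15 higher in DEN, with a median of -0.22 against 0.12 over all genes, and limma called 0 members and 0.271% of genes. The 8 members that turned from lower to higher in that fit were Ehhadh, Acaa1b, Etfb, Fgf21, Acot3, Acot4, Abcd2 and Aldh3a2.

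**Figure D3:**
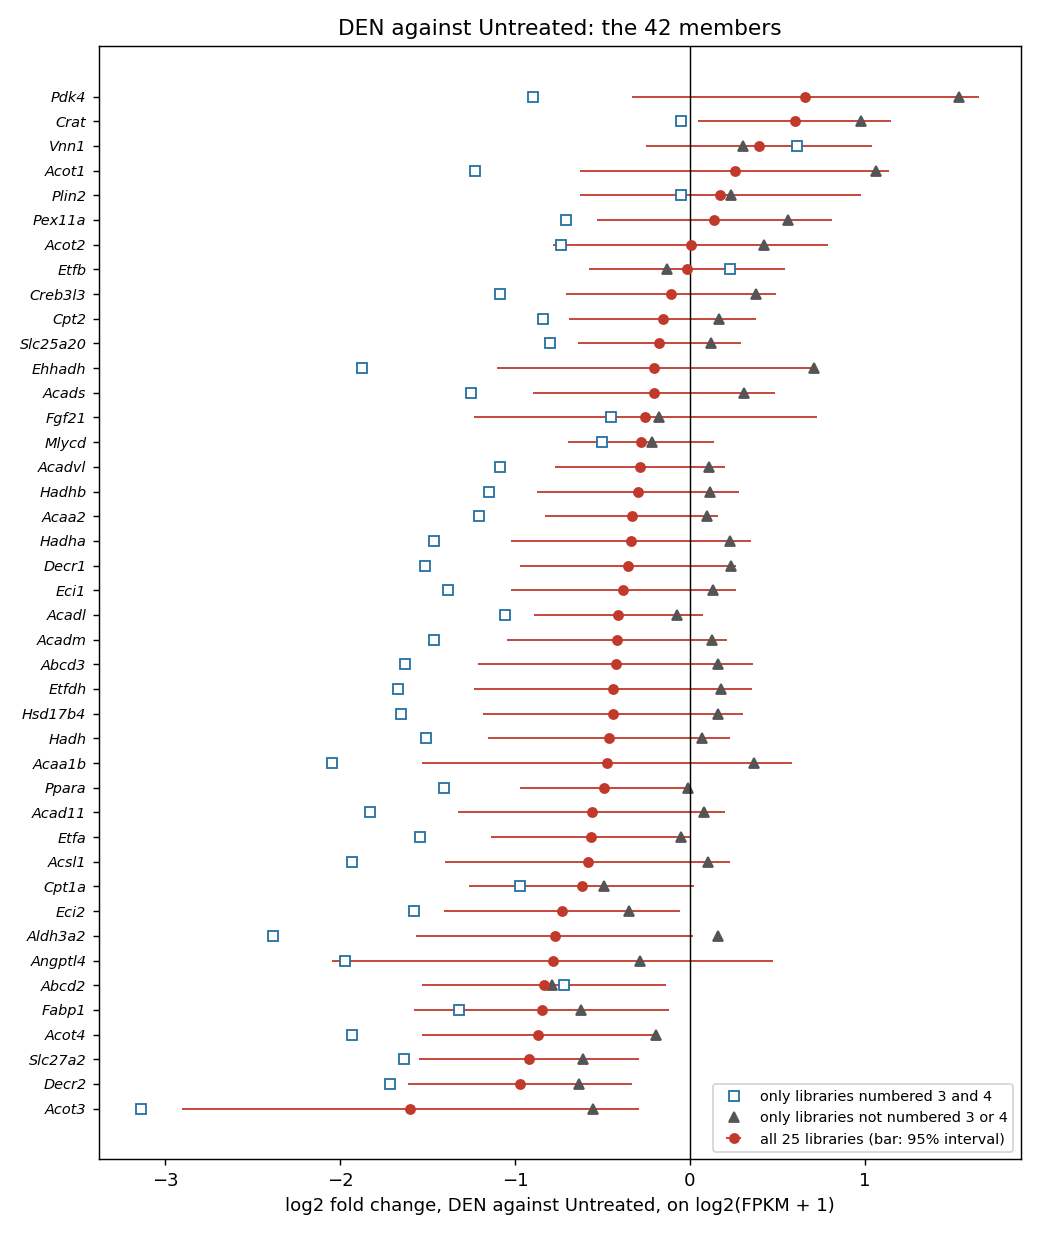
The log2 fold change of each member, DEN against Untreated, with its 95% interval in the fit of all 25 libraries (filled circles and bars), and within libraries numbered 3 and 4 (open squares) or the other libraries (triangles). The squares lie left of 0 for 40 of 42 members, and the triangles lie on both sides.

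Other treatments of the same reads moved single members past the threshold for DEN against Untreated. Decr2 was called by DESeq2 with Acot3 and Acot4 (8.63% of all genes called), by limma with a term for the numbers 3 and 4 (3.74%), and by edgeR with that term, with Acot4 and Etfa (7.16%). edgeR without the term called Acot4 alone (4.69%). limma with the replicate number as a block called Decr2 alone (2.82%), though the numbers were not found to pair DEN with Untreated mice. Without DEN 1, limma called Decr2, Eci2 and Slc27a2 (2.51%). Each of these calls was lower in DEN.

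Ppara (ENSMUSG00000022383) encodes the receptor. Its level was 7.96, 5.95, 7.84, 7.17 and 4.74 FPKM in Untreated mice 1 to 5, and 6.92, 7.35, 2.08, 2.35, 4.44 and 5.86 in DEN mice 1 to 6. DEN 3 and DEN 4 were the lowest of all libraries, and the groups overlapped. The log2 fold change was -0.49 (SE 0.23, adjusted p = 0.285, limma). It ran from 3.62 to 6.15 FPKM in DEN_CAF, 2.86 to 4.78 in DEN_SOR and 2.54 to 5.23 in DEN_CAF_SOR. The group means were, in order from high to low, Untreated, DEN_CAF, DEN, DEN_CAF_SOR and DEN_SOR (6.73 ± 1.37, 5.09 ± 1.013, 4.83 ± 2.27, 3.79 ± 1.15 and 3.69 ± 0.857 FPKM, SD). Untreated and DEN_CAF were further apart than either SD with overlapping ranges, and the other neighbours in this order were closer than their SDs. Between DEN_CAF_SOR and DEN_CAF it had the smallest unadjusted p of the members (log2 fold change -0.36, SE 0.24, adjusted p = 1.00 by limma). Creb3l3, a liver membrane-bound transcription factor that acts with PPARalpha on fasting genes and whose promoter match is printed above, was at 77.0 ± 7.32 FPKM in Untreated (SD, n = 5) and 80.4 ± 39.3 in DEN (n = 6). Its DEN values of 136, 85.9, 42.4, 29.3, 85.2 and 104 FPKM held both the highest and the lowest of the 25 libraries.

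The carnitine shuttle moves fatty acids into mitochondria. Cpt1a, the outer membrane transferase that limits the rate of entry, stood at 37.3, 51.2, 30.0, 25.2 and 34.4 FPKM in Untreated mice 1 to 5. In DEN it was 50.0, 24.2, 10.1, 18.0, 21.7 and 24.6 FPKM, so that 5 of the 6 mice were below every Untreated mouse and DEN 1 was not. The log2 fold change was -0.62 (SE 0.31, adjusted p = 0.329, limma), and -0.94 without the libraries with Xist reads. Cpt1a reached 57.8 FPKM in DEN_CAF 5 against 22.1 to 26.2 in the other 4 mice of that group. It spanned 17.0 to 52.0 FPKM in DEN_SOR and 22.4 to 30.7 in DEN_CAF_SOR. The inner membrane transferase Cpt2, the carrier Slc25a20 and Mlycd, which breaks down the CPT1 inhibitor malonyl-CoA, had log2 fold changes from -0.28 to -0.15 in DEN. Crat, which moves acetyl groups to and from carnitine, went the other way from most members. It was at 2.87 to 6.46 FPKM in Untreated and 4.59 to 12.2 in DEN (log2 fold change 0.60, SE 0.27, adjusted p = 0.256, limma, and 0.98 without the libraries with Xist reads), and the groups overlapped.

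The 5 acyl-CoA dehydrogenases carry out the first oxidation of each round, on chains of different length. All 5 had lower means in DEN than in Untreated, with log2 fold changes from -0.56 for Acad11 to -0.21 for the short-chain enzyme Acads, and none was called. The medium-chain enzyme Acadm was at 60.3 to 86.8 FPKM in Untreated, and 90.2, 70.5, 32.9, 27.0, 75.7 and 79.7 in DEN mice 1 to 6. Outside mice 3 and 4, its DEN values lay in or just above the Untreated range. That did not hold for the whole family. Acadl was at 84.1 to 116 FPKM in Untreated and at 77.1, 33.7, 64.9 and 83.8 in DEN 2, 3, 4 and 5. Acadvl reached 201 FPKM in DEN 1, against 126.8 to 156.8 in Untreated. Acad11 was at 7.22 and 3.75 FPKM in DEN 3 and 4 and 19.0 to 22.4 in the other DEN mice.

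The trifunctional protein genes Hadha and Hadhb, the dehydrogenase Hadh and the thiolase Acaa2 complete each round. They behaved alike, with log2 fold changes of -0.46 to -0.30 in DEN. Acaa2, the most abundant of these, was at 465 to 638 FPKM in Untreated, at 301 and 185 in DEN 3 and 4, and at 566 to 660 in the other DEN mice. Hadh was at 78.3 FPKM in DEN_CAF 5 and 23.1 to 32.4 in the other DEN_CAF mice. Hadhb shares 19.7% of its 50-base stretches with other genes, so some of its reads are uncertain.

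The enzymes for unsaturated chains held the member nearest to the threshold. Decr2 (ENSMUSG00000036775), the peroxisomal reductase of dienoyl-CoA, was at 29.7, 34.4, 17.3, 33.8 and 29.7 FPKM in Untreated mice 1 to 5. It was at 29.8, 14.9, 5.52, 8.10, 15.8 and 21.5 FPKM in DEN, where 4 of 6 mice were below every Untreated mouse. The log2 fold change was -0.97 (SE 0.31, adjusted p = 0.101, limma), from -1.71 within libraries 3 and 4 to -0.64 within the others. In the treated groups Decr2 ran from 14.8 to 22.5 FPKM in DEN_CAF, 9.86 to 32.6 in DEN_SOR and 15.8 to 19.1 in DEN_CAF_SOR. Eci2, an enoyl-CoA isomerase, gave -0.73 (SE 0.33, adjusted p = 0.259), with 48.5 FPKM in DEN 1 and 5.23 in DEN 4. For Decr1 and Eci1, the mitochondrial counterparts, the values were -0.35 and -0.38, and -0.15 and -0.18 without the libraries with Xist reads.

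The electron transfer flavoprotein passes electrons from the dehydrogenases to the respiratory chain. Its subunit gene Etfa was at 170 to 229 FPKM in Untreated and 139, 196, 74.8, 77.7, 204 and 198 in DEN mice 1 to 6 (log2 fold change -0.56, SE 0.28, adjusted p = 0.310, limma). As for most of the pathway, DEN 3 and 4 were the low ones. The oxidoreductase Etfdh followed it: Etfdh was at 6.57 and 5.01 FPKM in DEN 3 and 4 and at 22.2 to 24.1 in the other DEN mice. Etfb, which encodes the partner subunit of Etfa, did not. It was at 135 and 105 FPKM in DEN 3 and 4 and at 129, 70.8, 78.9 and 74.8 in DEN 1, 2, 5 and 6. In DEN_CAF_SOR it was at 150 and 210 FPKM in mice 3 and 4 and at 74.7 to 90.5 in the others. Etfb shares 44.8% of its 50-base stretches with other genes, 43.8% with the gene model Gm45233, so the origin of its reads is uncertain.

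Peroxisomal members differed among themselves. Ehhadh, the bifunctional enzyme and a textbook PPARalpha target, was at 53.0, 37.4, 89.7, 91.3 and 76.4 FPKM in Untreated and at 135, 81.6, 35.0, 16.3, 65.2 and 83.1 in DEN. The DEN mice spanned the Untreated range on both sides (log2 fold change -0.20, SE 0.44, adjusted p = 0.873, limma), and without the libraries with Xist reads the log2 fold change was 0.35. In DEN_CAF 5 Ehhadh reached 171 FPKM, the highest of the 25 libraries, against 36.1 to 65.3 in the other mice of that group. Hsd17b4, the other bifunctional enzyme, and the importer Abcd3 had log2 fold changes of -0.44 and -0.42. Acaa1b, a thiolase that shares 30.5% of its 50-base stretches with Acaa1a, ran from 40.1 FPKM in DEN 4 to 407 in DEN 1. Pex11a, which takes part in peroxisome division, was at 10.8 to 14.3 FPKM in Untreated, 50.0 in DEN 1, 5.99 to 13.9 in the other 5 DEN mice, and 34.7 in DEN_CAF 5.

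Fatty acid binding, activation and storage genes were among the most abundant members. Fabp1, the cytosolic fatty acid binding protein, was at 6412, 3279, 3785, 6489 and 7558 FPKM in Untreated and at 1836, 4125, 1417, 2783, 3829 and 5252 in DEN. The groups overlapped (log2 fold change -0.85, SE 0.35, adjusted p = 0.221, limma). Its 3 lowest libraries were DEN 3, DEN_CAF 1 (1539 FPKM) and DEN 1, the last of which was the highest for 13 other members. Slc27a2, a very-long-chain acyl-CoA synthetase and uptake protein, was at 449, 428, 280, 276 and 288 FPKM in Untreated and 458, 167, 96.8, 81.7, 210 and 240 in DEN. Apart from DEN 1, every DEN mouse was below every Untreated mouse (log2 fold change -0.92, SE 0.31, adjusted p = 0.117, limma). Acsl1, the main long-chain acyl-CoA synthetase, was at 24.9 and 10.5 FPKM in DEN 3 and 4, at 56.7 to 68.6 in the other DEN mice, and at 14.1 to 40.6 in DEN_SOR. Plin2, a coat protein of lipid droplets, was at 47.8 to 123 FPKM in Untreated, 35.8 to 141 in DEN, 47.8 to 181 in DEN_CAF, 29.1 to 88.7 in DEN_SOR and 21.9 to 88.5 in DEN_CAF_SOR. Its log2 fold change in DEN was 0.18 (SE 0.39, adjusted p = 0.877, limma), with no group standing apart.

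The acyl-CoA thioesterases, which free fatty acids from coenzyme A, lie side by side on chromosome 12 between 84034635 and 84107176 (GRCm39) and resemble each other. Acot1, 2 and 3 share 19.2%, 27.7% and 19.1% of their 50-base stretches with other genes. Acot1, the cytosolic PPARalpha target, was at 0.974, 0.136, 1.28, 2.85 and 1.99 FPKM in Untreated and at 10.6, 1.40, 0.498, 0.0647, 1.51 and 2.46 in DEN (log2 fold change 0.26, SE 0.43, adjusted p = 0.827, limma, and 0.85 without the libraries with Xist reads). DEN 1 and DEN 4 were the highest and lowest of all 25 libraries. Acot1 stayed between 0.523 and 3.81 FPKM in the treated groups.

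Acot3 and Acot4 divided the Untreated mice. Acot3, a peroxisomal thioesterase, was at 0.518 and 0.690 FPKM in Untreated 1 and 2 and at 33.3, 12.7 and 11.4 in Untreated 3, 4 and 5, the libraries with Xist reads. The highest of the 20 carcinogen-treated mice was at 6.99. Acot4 was at 6.40 and 5.67 FPKM in the first pair and at 27.3, 18.7 and 11.95 in the other 3. In DEN mice 1 to 6 Acot4 was at 11.4, 6.47, 7.39, 3.56, 4.12 and 5.82 FPKM. The log2 fold changes in DEN were -1.60 for Acot3 (SE 0.63, adjusted p = 0.196) and -0.87 for Acot4 (SE 0.32, adjusted p = 0.164, both limma). Abcd2, a peroxisomal importer of very long chains, was at 1.44 and 2.24 FPKM against 6.52, 6.87 and 6.19 (-0.83, SE 0.34, adjusted p = 0.210). Aldh3a2, which oxidises fatty aldehydes, was at 17.8 and 8.02 against 43.6, 43.4 and 37.3 FPKM (-0.77, SE 0.38, adjusted p = 0.317). Without the 3 libraries with Xist reads the log2 fold changes were 0.49, 0.01, 0.02 and 0.25 for Acot3, Acot4, Abcd2 and Aldh3a2, so none was lower in DEN. Pdk4 was split likewise, at 0.924 and 0.895 FPKM against 5.33, 5.09 and 6.71.

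**Figure D4:**
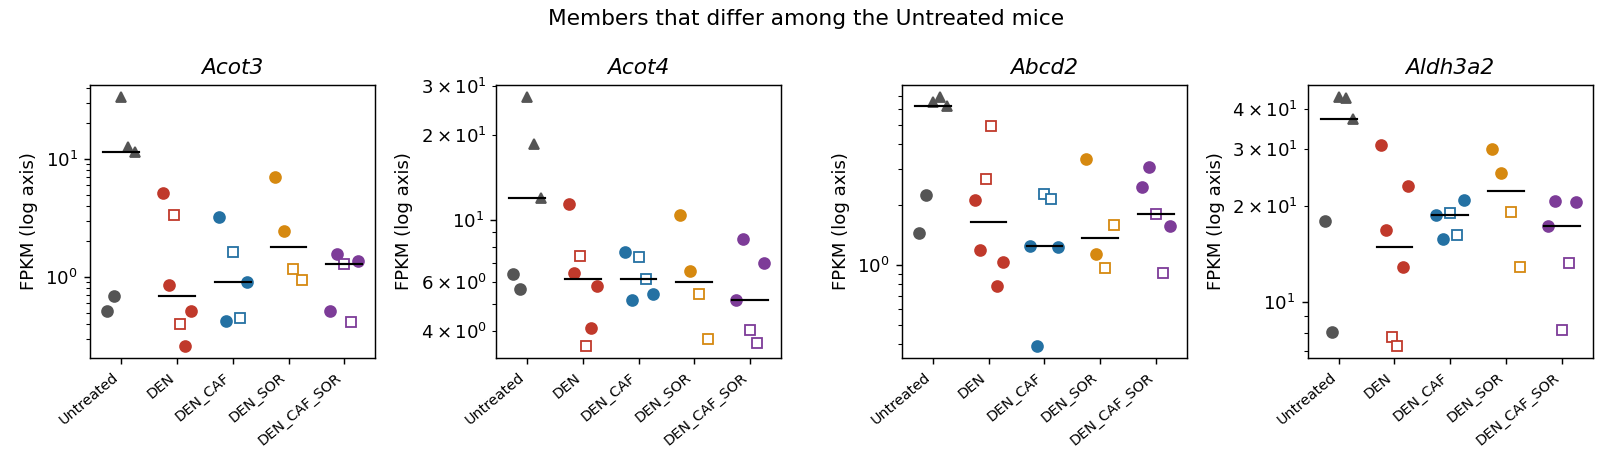
FPKM on a log axis for Acot3, Acot4, Abcd2 and Aldh3a2 in each mouse, by group; triangles are the 3 Untreated libraries with Xist reads, open squares the libraries numbered 3 and 4 of the carcinogen groups, filled circles the rest, and lines the group medians. The triangles lie above both other Untreated mice in every panel.

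The regulatory targets varied unequally between mice, with an SD of log2(FPKM + 1) within groups of 1.09 for Angptl4, 0.85 for Pdk4, 0.84 for Fgf21 and 0.55 for Vnn1, against 1.13 for Acot3, the highest of the members. Angptl4, a secreted inhibitor of lipoprotein lipase, was at 28.0, 18.7, 6.55, 16.2 and 16.4 FPKM in Untreated and at 88.1, 5.29, 2.25, 1.60, 11.2 and 13.2 in DEN. DEN 1 was the highest of the 25 libraries and DEN 4 the lowest. Its log2 fold change against Untreated was -0.78 (SE 0.61, adjusted p = 0.565, limma), and -1.30 without the libraries with Xist reads. It was at 27.5, 17.6, 18.9, 20.98 and 23.3 FPKM in DEN_CAF, 31.5, 27.8, 69.1 and 14.2 in DEN_SOR, and 12.4, 16.3, 30.4, 38.1 and 31.1 in DEN_CAF_SOR. Every DEN_CAF and DEN_SOR mouse was above 5 of the 6 DEN mice and below DEN 1.

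Pdk4 encodes the kinase that shuts off pyruvate dehydrogenase when fat is burned. It was at 10.6, 11.1, 3.81, 1.31, 4.86 and 6.52 FPKM in DEN, 2.26 to 5.77 in DEN_CAF, 0.772 to 5.58 in DEN_SOR and 0.817 to 7.68 in DEN_CAF_SOR. Against Untreated, its log2 fold change was 0.66 (SE 0.48, adjusted p = 0.529, limma), the highest of the members. It was -0.89 within libraries 3 and 4, 1.54 within the others and 1.74 without the libraries with Xist reads. Fgf21, the fasting hormone of the liver, was at 3.81, 2.06, 0.986, 7.90 and 6.97 FPKM in Untreated and 5.65, 3.55, 0.912, 3.94, 1.69 and 3.33 in DEN (-0.25, SE 0.47, adjusted p = 0.849, and 0.01 without the libraries with Xist reads). In DEN_CAF_SOR 3 a single read was assigned to it. Vnn1, a pantetheinase and strong PPARalpha target, was low throughout, at 0.0526 to 1.03 FPKM in Untreated and 0.457 to 2.18 in DEN (0.40, SE 0.31, adjusted p = 0.569). Its highest value was 4.05 FPKM in DEN_CAF 4.

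**Figure D5:**
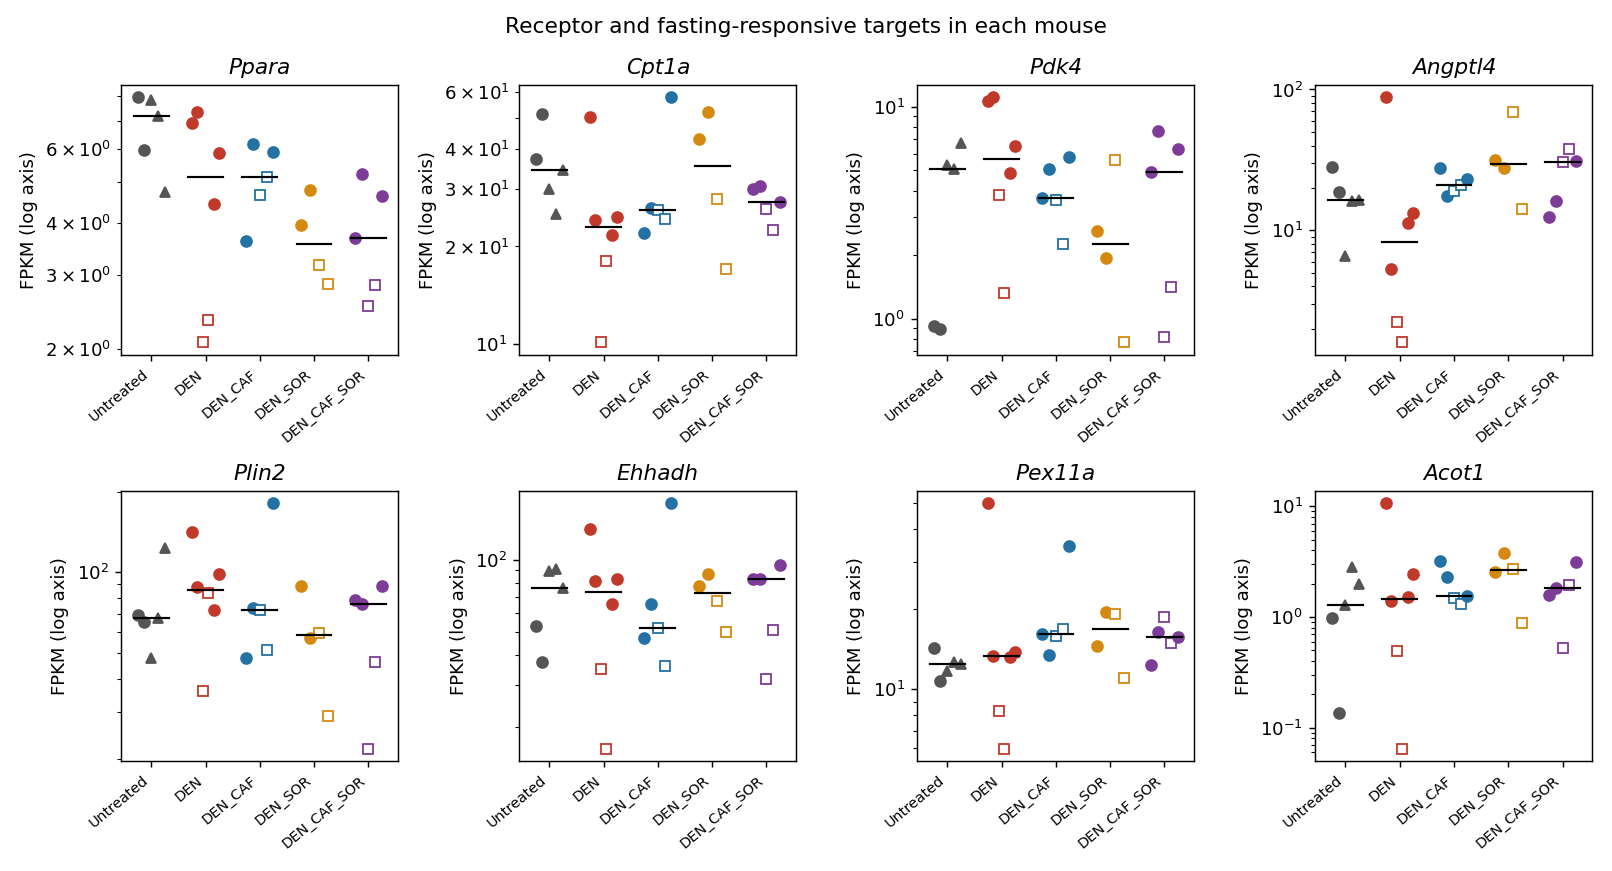
FPKM on a log axis for the receptor Ppara and 7 of its targets in each mouse, by group; triangles are the Untreated libraries with Xist reads, open squares the libraries numbered 3 and 4 of the carcinogen groups, filled circles the rest, and lines the group medians. The groups overlap in all panels, and DEN 1 stands above the other DEN mice for Cpt1a, Angptl4, Pex11a and Acot1.

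Caffeine after the carcinogen did not bring any member past the threshold. For DEN_CAF against DEN, limma called 0 of 42 members and 0.00785% of all genes (1 of 12741). Below an unadjusted p of 0.05 were 1 member and 2.81% of all genes. Means were higher in DEN_CAF for 36 members, with a median log2 fold change of 0.15, against 0.02 over all genes. The smallest unadjusted p values belonged to Slc27a2 (0.65, SE 0.31), Angptl4 (1.21, SE 0.61) and Acot2 (0.54, SE 0.38), each with an adjusted p of 1.00 by limma. For 28 members the 95% interval lay between -1 and 1. Both low DEN libraries enter this comparison: within libraries 3 and 4 the median was 0.82. Leaving out single libraries moved it between -0.02 and 0.27.

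Sorafenib after the carcinogen gave 0 of 42 members and 0% of all genes by limma, with the 95% interval of 26 members between -1 and 1. Below an unadjusted p of 0.05 were 6.19% of all genes and 2 members. The 2 were Angptl4 (log2 fold change 1.71, SE 0.65, adjusted p = 0.738) and Slc27a2 (0.71, SE 0.33, adjusted p = 0.793). Eci2 came next at 0.67 (SE 0.35, adjusted p = 0.846, limma). Pdk4 and Fgf21 pointed the other way, at -0.94 (SE 0.51, adjusted p = 0.858) and -0.87 (SE 0.51, adjusted p = 0.881). Of the members, 27 had higher means in DEN_SOR than in DEN, with a median of 0.11. Without DEN 1, the log2 fold change of Angptl4 was 2.35 for DEN_SOR (adjusted p = 0.071), 1.85 for DEN_CAF (adjusted p = 0.384) and 1.99 for DEN_CAF_SOR (adjusted p = 0.768), none past the threshold. In that fit the F-test over the 5 groups did call it (adjusted p = 0.0414, limma, with 1.17% of genes called). DEN 1 was the highest of the 25 libraries for Angptl4, so leaving it out was bound to raise the log2 fold changes against DEN. That fit was 1 of 25 that each left out 1 library. The 3 comparisons with DEN share the DEN mice.

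The combination gave 0 of 42 members and 0% of all genes against DEN, with 34 members higher in DEN_CAF_SOR and a median log2 fold change of 0.19. Angptl4 was again first at 1.35 (SE 0.61, adjusted p = 1.00 by limma, unadjusted p = 0.0372), followed by Slc27a2 at 0.55 (SE 0.31) and Eci2 at 0.58 (SE 0.33). Adding caffeine to sorafenib called 0 members and 0% of genes (median 0.07), and Acsl1 came nearest. It was at 14.1 to 40.6 FPKM in DEN_SOR and 22.4 to 70.6 in DEN_CAF_SOR (0.76, SE 0.44, adjusted p = 1.00), followed by Etfa (0.53, SE 0.31) and Fabp1 (0.48, SE 0.39). Adding sorafenib to caffeine called 0 members and 0% of genes (median 0.02), with Acot2 (-0.47, SE 0.40) and Plin2 (-0.42, SE 0.41) after Ppara. The 95% interval lay between -1 and 1 for 32 members when sorafenib was added to caffeine, for 26 when caffeine was added to sorafenib and for 30 when the combination was set against DEN. The test of whether caffeine acted differently with and without sorafenib also called 0 members and 0% of genes. Its median 95% interval reached 1.007 to either side, and the smallest unadjusted p values were those of Slc27a2 (-0.81, SE 0.46), Angptl4 (-1.57, SE 0.91) and Fgf21 (0.99, SE 0.71). An unadjusted p under 0.05 was found for 0 members in either addition to a single drug or in the interaction, and for Angptl4 alone when the combination was set against DEN. Of all genes, 3.39% had such a p for caffeine added to sorafenib and 2.95% for sorafenib added to caffeine. The share was 3.97% for the interaction and 2.72% for the combination against DEN. edgeR and DESeq2 likewise called 0 members in these 5 comparisons and the interaction. Of all genes, edgeR called 0.00785% for DEN_CAF against DEN and 0% elsewhere. DESeq2 called 0.0785% for DEN_CAF, 0.248% for DEN_SOR and 0% for DEN_CAF_SOR against DEN, 0.00785% for each addition to a single drug and 0.0864% for the interaction. A p that misses the threshold does not show that the groups were alike.

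Most members moved together from mouse to mouse. Taking each mouse's deviation from its group mean of log2(FPKM + 1), Hsd17b4 and Etfdh had a Pearson r of 0.97 over the 25 mice, and so did Hsd17b4 and Hadhb. The median r of a member with the other 41 was highest for Decr1 (0.79), Hadhb (0.78) and Hsd17b4 (0.78). It was -0.29 for Abcd2, -0.24 for Etfb, -0.04 for Vnn1, 0.09 for Acot3 and 0.21 for Fabp1. Acot3 was most like Acot4 (r = 0.91). These values are descriptions, and the points share the low libraries DEN 3 and DEN 4.

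Pdk4 was set against 5 other fasting targets in the same way, with permutation within groups and adjustment over the 10 p-values. Its deviations went with those of Acot1 (Pearson r = 0.67, Spearman rho = 0.64, n = 25, permutation adjusted p = 0.0107 for both, raw p = 0.00127 and 0.0025) and Plin2 (r = 0.58, rho = 0.61, permutation adjusted p = 0.0107 for both, raw p = 0.00428 and 0.00349). These 2 genes were not particular partners of Pdk4, whose median r with the other members was 0.55. Its highest r was 0.80, with Ehhadh. Without DEN 4 and DEN_CAF_SOR 3, the mice farthest from the median of Pdk4, r was 0.56 for Acot1 and 0.57 for Plin2. Within libraries 3 and 4 it was 0.75 and 0.28, and within the other 15 libraries 0.43 and 0.61. The permutation treats mice of a group as exchangeable, though the Xist reads and the numbers 3 and 4 set some apart. Both Pdk4 and Acot1 were lower in Untreated 1 and 2 than in Untreated 3, 4 and 5, the libraries with Xist reads. No r without those libraries is given here. With Cpt1a (r = 0.27, rho = 0.28, permutation adjusted p = 0.347 for both), Angptl4 (r = 0.24, rho = 0.10, adjusted p = 0.483 and 0.851) and Vnn1 (r = -0.02, rho = -0.01, adjusted p = 0.974) no relation passed. The raw p-values of r for these 3 were 0.205, 0.338 and 0.924. Within libraries 3 and 4 their r was 0.19, 0.78 and 0.32, and within the others 0.11, 0.01 and 0.11.

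The wider pathway was read from 11 lists of 136 further genes, covering partners of the receptor, ketone body synthesis, other oxidation enzymes, lipolysis and further thioesterases. Of these, 128 were tested and 5 were called by limma for DEN against Untreated (2.04% of all genes called), 2 higher and 3 lower, and 0 in any comparison of treated groups. Lpl, the lipase that Angptl4 inhibits and that adult hepatocytes normally hold at a low level, rose. It was at 1.04 to 12.5 FPKM in Untreated and 12.7 to 37.5 in DEN, without overlap (log2 fold change 2.07, SE 0.39, adjusted p = 0.00531), and its F-test over the 5 groups passed too (adjusted p = 0.0172). The summed level of 6 adipocyte markers (7 listed) also lay higher in DEN without overlap, at 4.16 to 20.1 FPKM against 1.497 to 3.18 in Untreated, and that of 6 cholangiocyte markers at 16.8 to 86.2 against 6.82 to 13.1. No found marker of either list had 3 reads or fewer in every library, and their part in the result was not tested. In Untreated 3, 4 and 5 Lpl was at 2.75, 1.04 and 1.84 FPKM, and at 8.86 and 12.5 in Untreated 1 and 2. Without the 3 libraries with Xist reads the log2 fold change was 0.84 and was no longer called (adjusted p = 0.367). Ppard, a receptor related to Ppara, rose from 0.98 to 3.18 FPKM in the means (log2 fold change 0.96, SE 0.25, adjusted p = 0.0430), with DEN 2, 3 and 4 at 4.82, 4.50 and 5.49 and the other DEN mice at 1.35 to 1.497.

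Among the called pathway genes that fell, Ppargc1b, a coactivator of PPARalpha, was at 0.89 to 1.47 FPKM in Untreated and 0.28 to 0.74 in DEN, without overlap (log2 fold change -0.52, SE 0.13, adjusted p = 0.0408, limma). Acot12, an acetyl-CoA thioesterase, was at 35.02 to 47.5 FPKM in Untreated and 17.7 to 42.5 in DEN (-0.70, SE 0.16, adjusted p = 0.0204). Eci3, an isomerase next to Eci2 in the genome, fell by 1.44 on the log2 scale (SE 0.37, adjusted p = 0.0384). Its Untreated values of 0.09, 0.54, 4.37, 6.57 and 5.79 FPKM were high only in the libraries with Xist reads. Without those libraries Ppard, Ppargc1b and Acot12 were not called either (adjusted p = 0.184, 0.249 and 0.286, limma), and Eci3 no longer met the filter on low values. The log2 fold changes of Ppard, Ppargc1b and Acot12 were then 1.16, -0.54 and -0.60, against 0.96, -0.52 and -0.70 with all libraries. That fit kept only Untreated 1 and 2 of their group and called 0.271% of all genes. Leaving out 1 library ended the call of Acot12 only for Untreated 3 (adjusted p = 0.0632), that of Eci3 for DEN 2, 4, 5 or 6 (adjusted p from 0.0554 to 0.0773) and for Untreated 3, 4 or 5 or DEN 3, where it no longer met the filter on low values, and those of Ppard and Ppargc1b for 8 of 11 libraries each. The call of Lpl held in all 11, but it was lost in the fit of only these 11 libraries (adjusted p = 0.0581, limma) and within libraries not numbered 3 or 4 (log2 fold change 1.27, adjusted p = 0.159). Those of Ppard and Acot12 were lost in both of these fits, that of Ppargc1b within libraries not numbered 3 or 4 (0.281) and that of Eci3 in the fit of only the 11 libraries (0.184). In the other of these fits Ppargc1b and Eci3 had no value, so their calls did not hold there either. With the replicate number as a block, Ppargc1b (0.0648) and Eci3 (0.0623) were not called.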

How the data were processed

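Liver RNA was sequenced in 25 mice. Reads were aligned with HISAT2 2.0.5 to GRCm39 and counted with featureCounts 1.5.0-p3, according to the submitters' processing notes. No source used here gives the annotation release or the strand setting. Each group has 1 table, named for FPKM. As deposited, its values are a signal that the authors made by dividing whole reads by a size factor of the library, as the values themselves show. In every library 100% of values were whole multiples of 1 step within 0.01 read. In 4 libraries that step is within 1% of 1, so the recovery rests on the values being near whole. FPKM was computed here from recovered reads, library total and listed gene length. Chi-square per degree of freedom was 22.8 or more in all 51 pairs of libraries of 1 group, so none repeated another.

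Of 24774 genes listed in all 5 tables, the 12741 that reached an FPKM of 1 in 4 or more libraries were tested on log2(FPKM + 1), a scale that understates the change of low genes, with limma 3.58.1 (R 4.3.3). All 25 libraries entered 1 fit (20 residual degrees of freedom), with eBayes trend and Benjamini-Hochberg adjustment at 0.05 within each comparison, two-sided. edgeR 4.0.16 (quasi-likelihood) and DESeq2 1.42.0 were run on the reads as alternatives. The limma step was tested on simulated data. Where no tool is named, an adjusted p is limma's. Correlations used 100000 permutations within groups (numpy 2.4.6). Shared sequence was counted in 50-base stretches of GENCODE M21 transcripts.

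The members and lists were chosen with earlier results of these data known. The text names members by role, the called members or the 3 with the smallest unadjusted p per comparison, 11 members always, and called genes of the pathway lists; other members are named for their values.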

Additional observations from a re-analysis of the deposited data

Results flagged for a closer look

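In 22 of 210 combinations of a member and a group, the highest or the lowest mouse stood apart from the rest of its group in FPKM. The rule was Dixon's criterion at the 95% level, which chance alone meets in about 1 in 20 groups if values are normally distributed. Whether that rate holds for FPKM was not tested. DEN_CAF 5 stood above its group for 10 members, namely Cpt1a (57.8 FPKM), Slc25a20 (18.6), Acadl (110 FPKM), Hadh (78.3), Ehhadh (171), Eci1 (74.1), Plin2 (181), Abcd3 (67.5), Pex11a (34.7) and Mlycd (41.5). DEN 1 did so for Cpt1a (50.0 FPKM), Angptl4 (88.1), Acot1 (10.6), Acot2 (5.55) and Pex11a (50.0). The members of 1 library move together, so these are not separate observations.

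The other mice set apart from their groups were single cases. Slc25a20 was low in DEN_SOR 4 (8.44 FPKM) and Decr2 was low in Untreated 3 (17.3). In DEN_CAF_SOR 3, Eci1 was low (28.6 FPKM) and Mlycd was high (39.1). Etfb was low in DEN_SOR 2 (81.7 FPKM), Plin2 was high in Untreated 5 (123) and Vnn1 was high in DEN_CAF 4 (4.05).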

How the results depend on the processing

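The median log2 fold change of the members for DEN against Untreated depended on which libraries entered: it was -1.35 from libraries 3 and 4 alone, 0.12 from the others, and 0.043 with a term for these numbers and without the Untreated libraries with Xist reads, a setting chosen after seeing the data. From libraries 3 and 4 alone the medians were 0.82 for DEN_CAF, 0.64 for DEN_SOR and 0.79 for DEN_CAF_SOR against DEN, and -0.71 for the caffeine by sorafenib interaction. Of the members, DEN against Untreated called 1 by edgeR, 3 by DESeq2, 1 with a term for the numbers 3 and 4, 3 by edgeR with that term (chosen after seeing the data) and 17 from libraries 3 and 4 alone. Of all genes, that comparison called 260 by limma, 598 by edgeR, 1056 by DESeq2, 477 by limma and 912 by edgeR with that term, and 160 without libraries 3 and 4. The F-test called 2 by DESeq2 and 1 by edgeR with that term.

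Leaving out 1 library at a time gave 0 to 3 called members for DEN against Untreated and 0 to 1 for the F-test, and 0 in the other comparisons. The median ran from -0.52 to -0.16 for DEN against Untreated, from -0.02 to 0.27 for DEN_CAF, -0.09 to 0.29 for DEN_SOR and 0.00 to 0.33 for DEN_CAF_SOR against DEN. It ran from -0.14 to 0.15 for adding caffeine to sorafenib, -0.04 to 0.15 for adding sorafenib to caffeine and -0.29 to 0.10 for the interaction. The cause of these changes was not tested. Of the 17 members called for DEN against Untreated in any setting, all called lower, 12 were higher in DEN in at least 1 other setting, up to 1.35 for Acot3 and 0.73 for Ehhadh. Decr2, Eci2, Etfa, Ppara and Slc27a2 were lower in every setting, and none of the 5 called pathway genes changed direction in a setting that gave it a value.

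With the replicate number as a block, 1 member (Decr2) was called for DEN against Untreated and 0 in the other comparisons. The numbers do not pair the mice over all groups: of 46 same-numbered pairs, 25 had a correlation of deviations over 0.1, within a range from -0.28 to 0.54, and 7 of 25 libraries correlated best with their own number. Between DEN and DEN_CAF all 5 pairs were over 0.1 (0.13 to 0.51), and there the block called 0 members, as did the fit without it. Depth limits Fgf21, Vnn1 and Acot1, which had 5 reads or fewer in some library.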

Other observations

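Of the pathway genes outside the members, the fatty acid hydroxylases Cyp4a10 and Cyp4a14, textbook PPARalpha targets, were highest in DEN 1. Cyp4a10 was at 346 FPKM there and at 0.99 to 11.1 in the other DEN mice, and Cyp4a14 at 215 FPKM and 0.10 to 6.34. In Untreated, Cyp4a10 was at 2.86 and 12.4 FPKM in mice 1 and 2 and at 98.2, 131 and 30.2 in mice 3, 4 and 5. In DEN_SOR it was at 56.9 to 116 FPKM in all 4 mice, above 5 of the 6 DEN mice. Such a rise was not shown to be particular to sorafenib. Over the 6 pathway genes listed for microsomal omega-oxidation, the median log2 fold change against DEN was 0.81 in DEN_SOR. It was 0.77 in DEN_CAF and 0.77 in DEN_CAF_SOR. Both genes were picked after their values were seen, and neither was called in any comparison by limma.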
